A study of Mus musculus with 8 samples.

Results

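CD4 T cells were examined in single-cell RNA sequencing of the left ventricle of male C57BL/6 mice, aged 10 to 12 weeks, after ischemia–reperfusion (IR) or sham surgery. A cell was taken as a CD4 T cell when its barcode carried at least 2 unique molecular identifiers (UMIs) of Cd3d, Cd3e and Cd3g together, at least 1 of Cd4 and 0 of Cd8a and Cd8b1. It also had at least 200 genes, at most 30% mitochondrial UMIs, at most 1 UMI of the B cell genes Cd79a, Cd79b and Ms4a1, under 0.1% of UMIs from C1qa, C1qb and C1qc, under 1% from S100a8 and S100a9 and under 0.15% from Dcn and Col3a1. The members were thus chosen by the measured UMIs of these genes, whose levels in them are given only as a description. The rule found 122 cells among 20159 barcodes, 59 of 11620 in the 0 h library and 63 of 8539 in the 6 h library.

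The labels name 4 samples IR0h and 4 samples IR6h and give no other genotype or agent. Per the study's reporting summary, cells of 3 hearts were pooled into a sample. The coronary artery was tied and released in IR mice, and sham mice had the same procedure without ligation. The protocol in the labels places tissue collection at 6 h after either operation, so the samples labelled 0 h are taken here as the sham group, which the labels do not state outright. Each matrix pools its samples without a map from cells to samples, so each condition was 1 library and no difference between conditions could be tested. Intervals below are exact 95% intervals that cover counting error only and leave out the spread between hearts.

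CD4 T cells recognize peptides on MHC class II molecules through the T cell receptor, whose signal passes through the CD3 chains and the kinase Lck, with CD4 as coreceptor. Naive and central memory cells circulate through lymphoid tissue guided by Ccr7 and depend on interleukin-7 for survival, whereas regulatory cells are set by the transcription factor Foxp3 and restrain other T cells. In the heart, CD4 T cells are a small population at steady state and are known to shape inflammation and scar formation after infarction.

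The cells of the 2 libraries differed in depth. Members of the 0 h library had a median of 2605 UMIs (range 1579 to 16687) and 942 genes, and those of the 6 h library a median of 5260 UMIs (1650 to 16608) and 1560 genes, for totals of 211180 and 349439 UMIs. All filtered barcodes had medians of 4649 and 6636 UMIs. The median mitochondrial share was 4.41% in 0 h members and 7.01% in 6 h members. In all, 30 barcode sequences occurred in both libraries, and 0 of them were members.

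**Figure D1:**
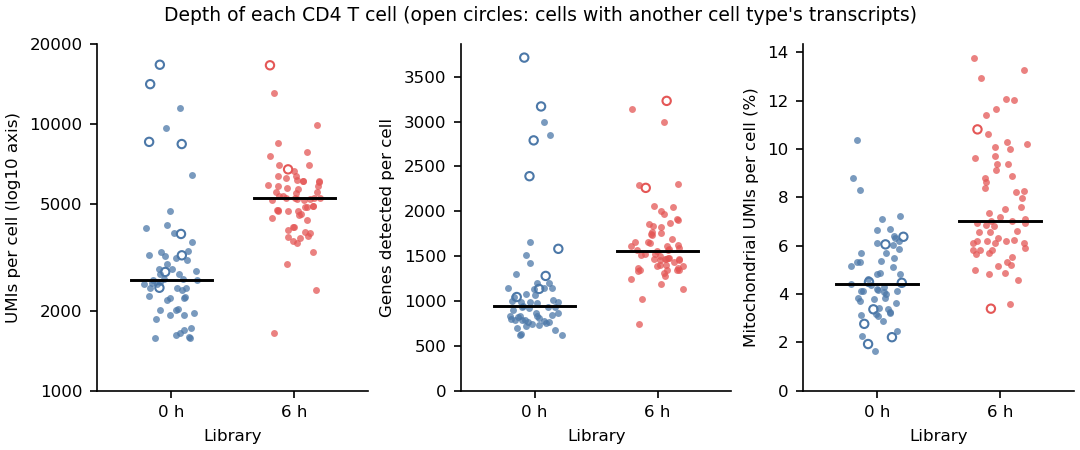
UMIs (log10 axis), genes detected and percentage of mitochondrial UMIs for each CD4 T cell of the 0 h (59 cells) and 6 h (63 cells) libraries. Each point is a cell, black lines are medians, and open circles are the 8 and 2 cells that carried transcripts of another cell type. Median UMIs were 2605 at 0 h and 5260 at 6 h.

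The rule rests on few molecules. Of the 0 h members 47 had a single Cd4 UMI and 12 had more, with at most 3, and of the 6 h members 41 had 1 and 22 had more, with at most 4. The median sum of the CD3 genes was 6 UMIs at 0 h and 7 at 6 h, and 6 and 2 members stood at the limit of 2. Just outside it, 0 and 3 barcodes met every other criterion with 1 CD3 UMI, 10 and 4 with none, and 40 and 15 barcodes failed only a limit on another lineage.

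Of the 122 cells, 10 carried transcripts of another cell type at 0.5% or more of their UMIs. At 0 h there were 8, among them 2 with 4.59% and 3.58% from a list of B cell and MHC class II genes, 3 with pericyte genes and 1 each with endothelial (2.05%), macrophage (0.68%) and neutrophil (0.74%) genes. At 6 h there were 2, with macrophage (1.47%) and endothelial (0.50%) genes. Scoring against simulated doublets removed the 3 pericyte-bearing cells and no 6 h member. Gene values are therefore also given without these cells, that is for 51 cells (151071 UMIs) at 0 h and 61 cells (326067 UMIs) at 6 h.

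CD4 T cells were 0.519% of filtered barcodes at 0 h (interval 0.395 to 0.668) and 0.763% at 6 h (0.587 to 0.975). Among cells of the same T cell gate with only Cd4 or only Cd8 UMIs, the CD4 share was 27.2% at 0 h (59 of 217, 21.4 to 33.6) and 36.8% at 6 h (63 of 171, 29.6 to 44.5). These intervals overlap. With every barcode thinned to 1000 UMIs before gating, which left out 323 barcodes at 0 h and 284 at 6 h, the shares of filtered barcodes were 0.145% (16 cells) and 0.0752% (6 cells), the opposite order. The CD4 shares of CD4 and CD8 cells were then 20.0% (16 of 80) and 25% (6 of 24). No order of the CD4 share between the libraries is read from these values. A further 206 T cells at 0 h and 108 at 6 h had neither a Cd4 nor a Cd8 UMI, so the rule missed an unknown number of CD4 T cells.

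The name was checked against genes that the rule did not use. Il7r, the interleukin-7 receptor chain, had 507 counts per 1000000 UMIs (CPM) in CD4 T cells at 0 h and 904 CPM at 6 h, against 17.2 and 83.3 CPM in natural killer (NK) cells and 7.27 and 38.7 CPM in B cells. NK cells were barcodes without CD3 UMIs and with at least 2 UMIs of NK receptor genes, and B cells had at least 3 UMIs of Cd79a, Cd79b and Ms4a1. Tcf7, a transcription factor of naive and memory T cells, had 336 and 535 CPM against 25.2 and 32.1 CPM in NK cells. Bcl11b, which maintains T cell identity, had 289 and 269 CPM against 4.58 and 0 CPM in NK cells. Ncr1, an NK receptor, had 0 UMIs in CD4 T cells of both libraries. A floor of 3 UMIs stands at 14.2 CPM at 0 h and 8.59 CPM at 6 h, and it is not an exact limit. The constant-region genes of the T cell receptor were not analysed here. The NK marker list of 12 genes summed to 725 CPM at 0 h and 733 CPM at 6 h, against 20397 and 13119 CPM in NK cells, and 4 of its genes had 0 UMIs in CD4 T cells of both libraries. Most of its UMIs came from Txk, a kinase that T cells express too, with 82 of 153 UMIs at 0 h and 209 of 256 at 6 h. T cell genes outside the rule were thus present and NK markers were low but not absent, while the Cd4 transcript that separates the cells from CD8 T cells was part of the rule.

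Some genes tied to the CD4 lineage separated the cells from CD8 T cells in both libraries. Summed, the CD4 lineage list differed less between the 2 cell types. It had 488 CPM at 0 h and 627 CPM at 6 h, against 304 and 369 CPM in CD8 T cells. Cd40lg, the ligand through which helper T cells activate B cells, had 71.0 CPM at 0 h and 51.5 CPM at 6 h, against 9.19 and 0 CPM in CD8 T cells. Izumo1r, a folate receptor family member found on CD4 T cells, had 56.8 and 51.5 CPM against 13.1 and 14.8 CPM. Cd5, which dampens receptor signals, had 189 and 114 CPM against 51.2 and 35.9 CPM, a log2 ratio of 1.89 (1.19 to 2.60) at 0 h and 1.67 (0.94 to 2.43) at 6 h. In the other direction, Nkg7, a cytotoxic granule protein, was at 166 and 120 CPM against 717 and 441 CPM in CD8 T cells, and Klrd1, an NK receptor chain, at 66.3 and 5.72 CPM against 262 and 172 CPM. Nkg7 UMIs came from 7 and 4 CD4 T cells. Ccl5 came from 7 and 2 CD4 T cells, with 166 and 218 UMIs, of which 1 cell gave 216 at 6 h.

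**Figure D2:**
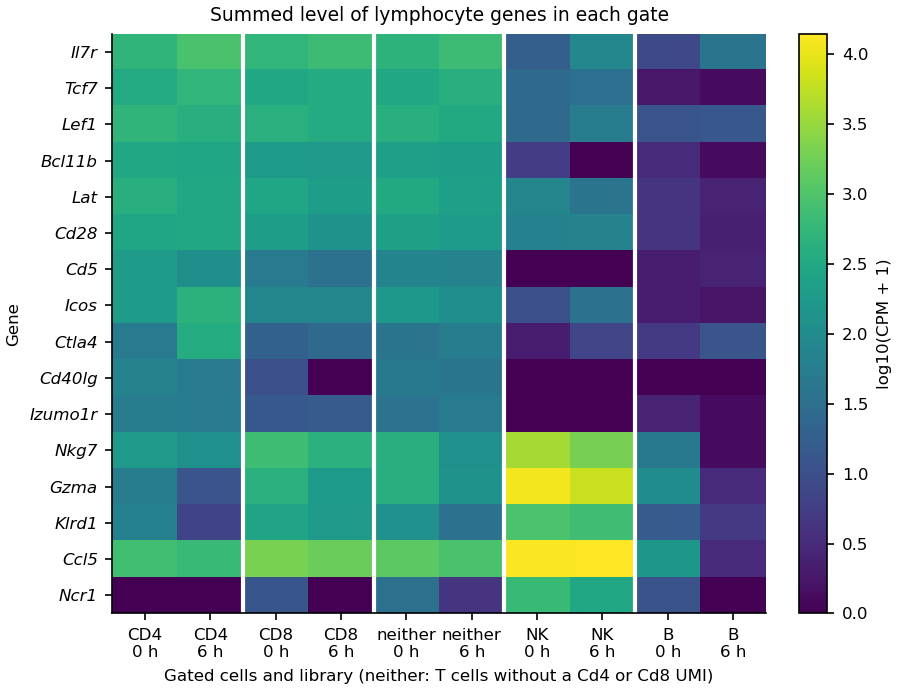
Summed level, as log10(CPM + 1), of 16 genes (rows) in CD4, CD8, doubly negative (neither), NK and B cells of each library (columns). Il7r, Tcf7, Lef1 and Bcl11b are high in the T cell columns and low in NK and B cells, Cd40lg is highest in the CD4 and neither columns, and Nkg7, Gzma and Ccl5 are highest in NK cells.

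A gene was compared between the libraries, and is called measured here, when it had at least 30 UMIs in the CD4 T cells of both together. Of 2219 such genes, 185 were at least 2-fold higher at 6 h (8.34%) and 125 at least 2-fold lower (5.63%), with a median log2 ratio of 0.01. Without the 10 cells holding other transcripts, 169 of 1843 genes were higher (9.17%) and 58 lower (3.15%). Of the 185, 179 stayed past 2-fold without the top cell of each gene and library, and of the 125, 108 did. These counts describe 2 libraries and are not counts of changed genes.

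Genes of the naive and central memory program were present in both libraries. Of the 18 measured genes of the list, 1 was at least 2-fold higher at 6 h and 1 at least 2-fold lower, shares near the 8.34% and 5.63% of all genes. Ccr7, the lymph node homing receptor, had 407 CPM at 0 h and 266 CPM at 6 h, with UMIs in 38 of 59 and 36 of 63 cells. Lef1, a partner of Tcf7, had 516 and 392 CPM, in 42 and 49 cells. Klf2, a factor that drives homing receptors, had 1932 and 1242 CPM, a log2 ratio of -0.64 (-0.84 to -0.44). S1pr1, the sphingosine 1-phosphate receptor for exit from lymph nodes, had 417 and 338 CPM, in 43 and 50 cells. Satb1, a chromatin organizer of T cells, leaned the other way with 545 and 1027 CPM (0.92, 0.61 to 1.23), short of 2-fold. The gene at least 2-fold higher was Il6st, and the one at least 2-fold lower was Tubb5, a tubulin, with 653 and 195 CPM (-1.75), whose ratio was -0.79 without the 10 cells. The median log2 ratio of the list was 0.20, and -0.10 without those cells.

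The interferon-stimulated genes, which cells switch on through the interferon receptors and factors such as Irf9, were lower in CD4 T cells of the 6 h library. Of 23 measured members of the list, 14 were at least 2-fold lower and 0 at least 2-fold higher, where 5.63% of all genes were lower. The median log2 ratio was -1.09, and -1.01 without the 10 cells, where 12 genes were 2-fold lower. Summed, the list gave 10650 CPM at 0 h and 4187 CPM at 6 h, a log2 ratio of -1.35 (-1.44 to -1.25).

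Bst2, the tetherin that holds budding virus at the cell surface, had 545 CPM at 0 h and 54.4 CPM at 6 h, with UMIs in 37 of 59 and 13 of 63 cells (log2 ratio -3.32, -4.11 to -2.62). Ifi27l2a, a mitochondrial interferon-induced protein, had 3987 and 707 CPM, found in 51 and 47 cells (-2.50, -2.71 to -2.29). Irf7, the factor that amplifies interferon production, had 189 and 25.8 CPM in 18 and 8 cells (-2.88). Ifit1, which binds viral RNA caps, had 152 and 8.59 CPM, from 32 UMIs in 18 cells and 3 UMIs in 2 cells (-4.14, -6.49 to -2.47). In GRCm38 Bst2 lies at 71534255 to 71537456 of chromosome 8, Ifi27l2a at 103442167 to 103443680 of chromosome 12, Irf7 at 141262706 to 141266481 of chromosome 7 and Ifit1 at 34640871 to 34650009 of chromosome 19. The share of cells with a UMI went with the level in each of these genes, although 6 h cells were the deeper ones.

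Isg15, a ubiquitin-like modifier, had 341 CPM at 0 h and 80.1 CPM at 6 h (-2.09, -2.77 to -1.44), and -1.51 without the 10 cells. Slfn1, a regulator of T cell quiescence, had 350 and 94.4 CPM (-1.89), and Rtp4 185 and 34.3 CPM (-2.43). The list held genes that did not follow: Ly6e had 919 and 758 CPM (-0.28), Samhd1, a nucleotide phosphohydrolase, 417 and 489 CPM (0.23), and Irf1 80.5 and 120 CPM (0.58, -0.27 to 1.48). Rnf213, a large ubiquitin ligase outside the list and among the 15 lowest named genes, had 180 and 22.9 CPM (-2.97).

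**Figure D3:**
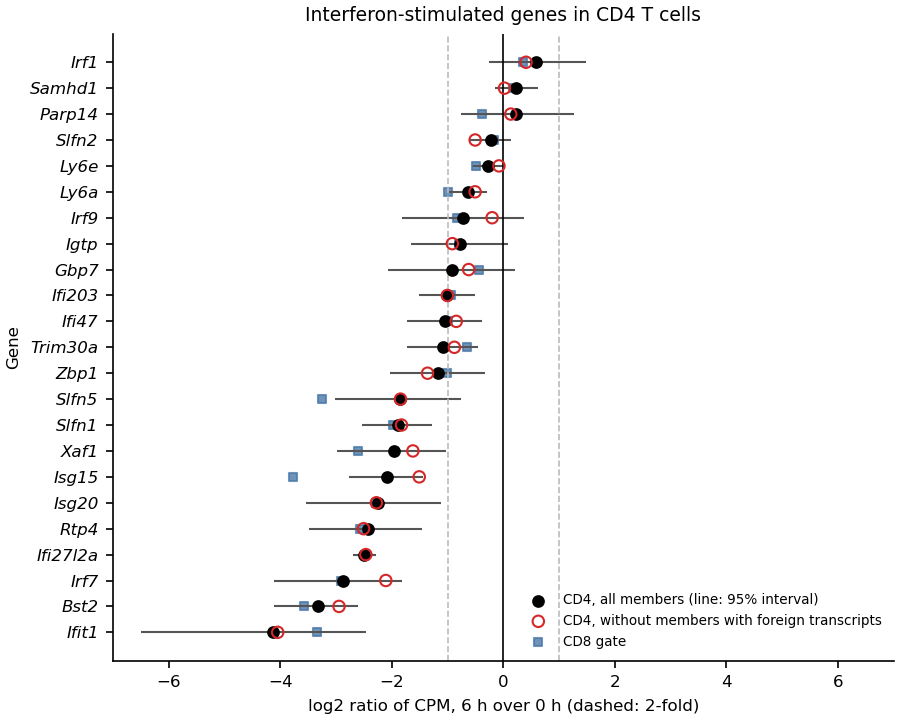
Log2 ratio of CPM at 6 h over 0 h for the 23 measured interferon-stimulated genes, one gene per row, in all CD4 T cells (black, lines are 95% intervals), without the 10 cells holding other transcripts (red circles) and in CD8 T cells (blue squares); dashed lines mark 2-fold. Ifit1, Bst2, Irf7 and Ifi27l2a lie furthest to the left, and 14 genes lie at or beyond 2-fold lower.

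Among the cells, the interferon list took a median of 0.896% of UMIs at 0 h (lowest 0.0779%, highest 3.53%) and 0.342% at 6 h (0.119% to 1.42%). Of the 63 cells at 6 h, 61 lay below the 0 h median. The ranges overlapped, since 0 h cells reached down to the lowest values of either library while the highest were all at 0 h. Ifi27l2a gave the most UMIs, and without it the medians were 0.593% and 0.315%.

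**Figure D4:**
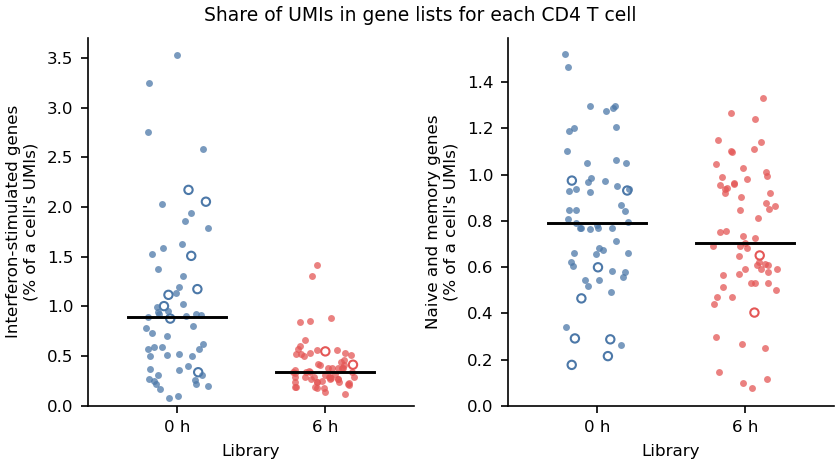
Percentage of each CD4 T cell's UMIs in the interferon-stimulated gene list (left) and the naive and memory gene list (right), by library. Points are cells, lines are medians, and open circles are cells with another cell type's transcripts. The interferon medians are 0.896% at 0 h and 0.342% at 6 h, and the 0 h cells spread up to 3.53%.

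The lower values were shared with other cells. The same list had 15 of 29 measured genes 2-fold lower in CD8 T cells (median log2 ratio -1.01), 18 of 28 in NK cells (-1.34) and 30 of 36 in B cells (-2.25), where 3.72%, 6.43% and 4.95% of all measured genes were that much lower. None of the list was 2-fold higher in any of these cells (0 genes each), where 6.95%, 9.8% and 4.23% of all measured genes were. In the remaining barcodes, outside the T, NK and B cell gates, 17 of the 23 genes were 2-fold lower (median -1.76), which includes 11 of the 14 lower in CD4 T cells. Bst2 had 1272 CPM there at 0 h and 108 CPM at 6 h, and Ifi27l2a 6225 and 930 CPM. RNA set free from such cells can enter the droplet of a T cell, and its part in the lower values was not tested. Slfn1 went the other way in the remaining barcodes, with 81.5 CPM at 0 h and 220 CPM at 6 h, while CD4 T cells had 350 and 94.4 CPM.

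The promoters of 3 of the lower genes are shown as examples that carry the letters of the interferon-stimulated response element before the start. Each is 80 bases, 5′ to 3′ on the gene's strand, from the RefSeq promoter table for GRCm38.p6, with matches to GAAANNGAAA (or TTTCNNTTTC, its reverse complement) in capitals; overlapping matches run together. The stretch for Ifit1 is chr19:34640750-34640829 on the plus strand, that for Isg15 chr4:156200852-156200931 on the minus strand and that for Bst2 chr8:71537558-71537637 on the minus strand.
Ifit1: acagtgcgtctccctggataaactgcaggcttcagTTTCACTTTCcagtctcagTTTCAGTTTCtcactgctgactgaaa
Isg15: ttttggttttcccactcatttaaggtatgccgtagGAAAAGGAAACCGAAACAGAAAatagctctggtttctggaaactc
Bst2: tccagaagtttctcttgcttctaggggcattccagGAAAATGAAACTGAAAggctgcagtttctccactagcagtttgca

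The first match begins 104 bases before the start of Ifit1, 78 before that of Isg15 and 130 before that of Bst2. In the window from 250 bases before to 50 after the start, the letters occur in 3.99% of 27025 genes with an entry. They occur in 16 of the 27 interferon list genes matched in the table, in 6 of the 11 matched among the 14 lower genes, and in 2 of the 6 matched among the 9 others. The match is a description of sequence and is not a binding measurement.

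Some genes that relay or restrain interleukin-6 family and NF-kB signals were at least 2-fold higher at 6 h, while others of the same pathways were level. Socs3 (GRCm38, chromosome 11, 117966079 to 117970047), the feedback inhibitor of interleukin-6 family receptors, had 90.0 CPM at 0 h and 538 CPM at 6 h (log2 ratio 2.58, 1.90 to 3.34; 2.26 without the 10 cells). Its UMIs were in 13 of 59 cells at 0 h and 51 of 63 at 6 h, and after thinning to 1000 UMIs in 8.47% and 28.6% of cells. Socs3 was also higher at 6 h in NK cells, with 106 and 308 CPM (1.53, 1.10 to 1.96), and in B cells, with 71.8 and 253 CPM (1.82, 1.63 to 2.01). In the remaining barcodes Socs3 was nearly level, with 730 and 762 CPM. Stat3, the transducer of the same receptors, had 80.5 and 255 CPM (1.66, 0.90 to 2.50), and Il6st, their shared chain gp130, 23.7 and 74.4 CPM (1.65, 0.25 to 3.39).

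Bcl3, a nuclear NF-kB regulator, had 0 UMIs at 0 h and 38 UMIs in 23 cells at 6 h. That is 7.65-fold higher with 3 UMIs over the 0 h cells as the floor. The exact lower limit of its log2 ratio was 2.57, and 1.77 without the 10 cells. Nfkbia, the inhibitor of NF-kB and a target of it, had 346 and 953 CPM (1.46, 1.09 to 1.85), although 1 cell gave 49.3% of the 0 h UMIs and 1 gave 30.3% of the 6 h UMIs. Without the 10 cells the ratio was 1.87. Birc3, an inhibitor of cell death, had 42.6 and 120 CPM (1.5). Tnfaip3, the deubiquitinase A20, had 303 and 295 CPM (-0.04). Of 13 measured genes of the NF-kB and TNF list, 4 were 2-fold higher (8.34% of all genes) and 1, Nfkbid, was 2-fold lower (5.63% of all genes). The median log2 ratio was 0.68, and 0.37 without the 10 cells. In CD8 T cells 6 of 16 measured genes of the list were 2-fold higher (median 0.58), in NK cells 8 of 17 (0.97) and in B cells 3 of 19 (0.15). All genes measured there had shares of 6.95%, 9.8% and 4.23%. The ratio of Bcl3 in CD8 T cells was 2.19 (1.27 to 3.22). Zfp36, which destabilizes cytokine messages, had 194 and 592 CPM in CD4 T cells (1.61, 1.12 to 2.13).

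Of 12 measured cytokine receptor genes, 4 were at least 2-fold higher and 0 lower, beside 8.34% and 5.63% of all genes. The median log2 ratio was 0.79, and 11 of the 12 were above 0, where 1137 of all 2219 genes were. Higher values were shared with other cells. In CD8 T cells 3 of 17 measured genes of the list were 2-fold higher (median 0.64), in NK cells 7 of 15 (0.95) and in B cells 3 of 20 (0.27). These stand beside 6.95%, 9.8% and 4.23% of all genes measured there. In CD4 T cells Il7r had 107 UMIs in 39 cells at 0 h and 316 UMIs in 53 cells at 6 h (0.84, 0.52 to 1.17), short of 2-fold. Without the 10 cells the ratio was 0.54 (0.21 to 0.89). Il17ra, an interleukin-17 receptor chain, had 37.9 and 143 CPM (1.92), and Ifngr1, the interferon-gamma receptor chain, 256 and 429 CPM (0.75, 0.29 to 1.22). Il2rg, the common gamma chain, had 204 and 163 CPM (-0.32, -0.92 to 0.29).

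Further genes with the highest ratios were Crem, a cyclic AMP response factor (9.47 and 123 CPM, log2 ratio 3.70), and Samsn1, a lymphocyte adaptor (18.9 and 177 CPM, 3.23). Zfp281, a zinc finger transcription factor, had 33.1 and 200 CPM (2.59). Elovl6, a fatty acid elongase, had 0 UMIs and 34 UMIs in 19 cells, 6.85-fold higher by the same floor. The exact lower limit of its log2 ratio was 2.40. Odc1, the first enzyme of polyamine synthesis, had 47.4 CPM at 0 h and 238 CPM at 6 h (2.33, 1.38 to 3.44), with UMIs in 6 and 26 cells. In CD8 T cells the ratio of Odc1 was -0.01 (-0.56 to 0.54). The counting intervals of the 2 cell types did not overlap, but with 1 library per condition their difference was not tested. The ratio of Socs3 in CD8 T cells was 2.50 (2.11 to 2.92), and that of Zfp281 was 2.41.

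Ctla4 (chromosome 1, 60887000 to 60915832), an inhibitory receptor of activated and regulatory T cells, had 52.1 CPM at 0 h and 366 CPM at 6 h (2.81, 1.93 to 3.85; 2.72 without the 10 cells). Its UMIs were in 5 of 59 cells at 0 h (8.47%) and 19 of 63 at 6 h (30.2%). A random draw of 1000 UMIs per cell gave 0 of 59, which allows up to 6.06% of cells with a UMI at that depth, and 12 of 63 (19.0%). Another draw, without the 10 cells, gave 2 of 51 (3.92%) and 12 of 61 (19.7%). T cells with neither a Cd4 nor a Cd8 UMI had 39.1 and 53.8 CPM of Ctla4 (0.46, -0.32 to 1.26). After thinning, 3.40% and 3.70% of these cells had a Ctla4 UMI, so a rise like that of CD4 T cells was not seen there. In CD8 T cells Ctla4 had 18.4 and 26 CPM (0.50, -0.54 to 1.59), and in the remaining barcodes 1.67 and 1.42 CPM. Icos, a costimulatory receptor, had 185 and 455 CPM (1.30, 0.79 to 1.85), against -0.04 (-0.57 to 0.49) in CD8 T cells. Maf, a factor of helper and regulatory subsets, had 99.4 and 292 CPM (1.55, 0.87 to 2.31), against -1.96 (-3.55 to -0.61) in CD8 T cells. Tnfrsf18, the receptor GITR, had 42.6 and 123 CPM (1.53), and Batf, an AP-1 family factor of activated T cells, 42.6 and 126 CPM (1.56).

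The cells with Ctla4 carried more of some genes of regulatory and effector cells. At 6 h the 19 cells with Ctla4 had 784 CPM of Maf, 906 CPM of Icos, 357 CPM of Ikzf2, the factor Helios, and 958 CPM of S100a4. The 44 cells without it had 51.2, 234, 0 and 124 CPM of the same genes, with nearly equal median depth (5385 and 5231 UMIs). Of the 41 Ikzf2 UMIs in cells with Ctla4, 30 came from 3 cells that also had Foxp3. Il7r went the other way, at 662 CPM with Ctla4 and 1023 CPM without it. Other genes differed less, such as Ccr7 (287 and 256 CPM) and Cd44 (78.4 and 55.4 CPM). The split was made on a gene of the same cells and is a description.

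Foxp3 (X, 7573644 to 7595245) was found in 1 of 59 cells at 0 h (1.69%, interval 0.0429 to 9.09) and 4 of 63 at 6 h (6.35%, 1.76 to 15.5), shares whose intervals overlap. All 5 cells with Foxp3 had Ctla4 UMIs, 4 in the 0 h cell and 15, 10, 9 and 6 in the 6 h cells. The 4 cells at 6 h had 1994 CPM of Ctla4 and 1495 CPM of Ikzf2, against 267 and 33.4 CPM in the other 59 cells. Foxp3 UMIs were in 0 of 158 CD8 T cells at 0 h, which allows up to 2.31% of cells with a UMI. At 6 h they were in 1 of 108 (0.926%, 0.0234 to 5.05), whose interval overlaps that of the CD4 T cells. Of 24 genes of the regulatory T cell list 6 were measured, of which 3 were 2-fold higher at 6 h and 0 lower. These stand beside 8.34% and 5.63% of all genes. The median log2 ratio was 1.13. Without the 10 cells holding other transcripts 2 were 2-fold higher, beside 9.17% of all genes, and the median was 0.89.

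**Figure D5:**
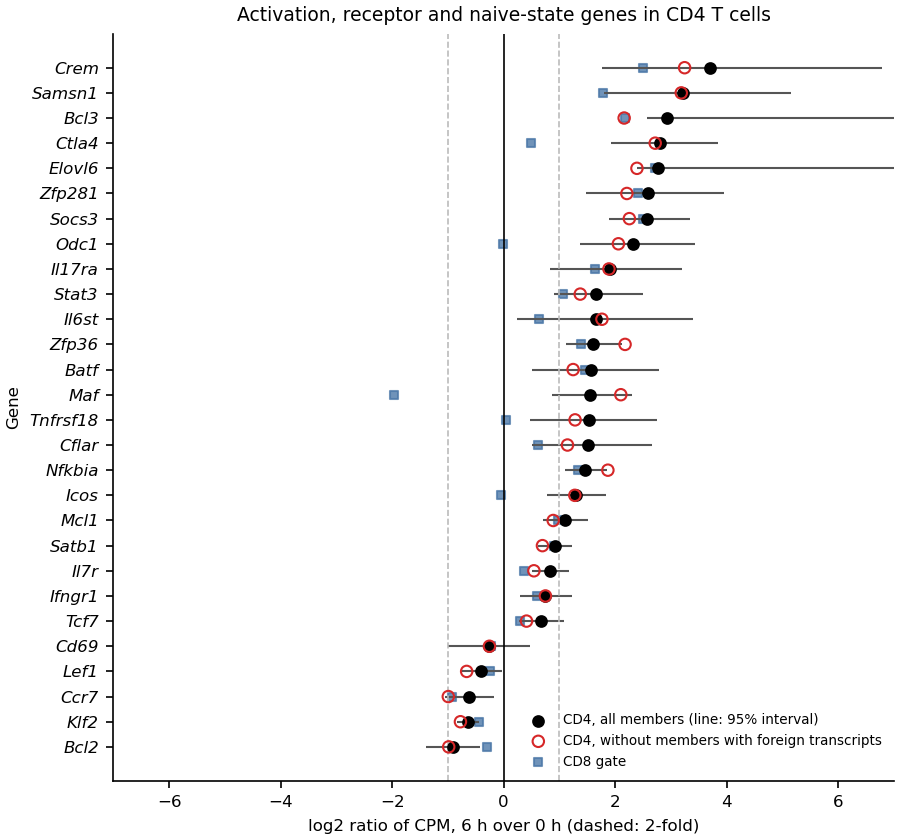
Log2 ratio of CPM at 6 h over 0 h for 28 genes of activation, cytokine receptors, survival and the naive state, in all CD4 T cells (black, lines are 95% intervals, lower bounds for Bcl3 and Elovl6), without the 10 cells holding other transcripts (red circles) and in CD8 T cells (blue squares). Ctla4, Icos, Odc1, Maf and Tnfrsf18 show blue squares well to the left of the black points, while Socs3, Stat3 and Zfp36 show them close by.

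Immediate early genes were found past 2-fold in both directions. Of 17 measured, 3 were 2-fold higher at 6 h and 3 lower, beside 8.34% and 5.63% of all genes, with a median log2 ratio of 0.14. Leaving out the 10 cells gave 3 higher and 0 lower. Fos had 360 and 238 CPM (-0.60, -1.07 to -0.13), Junb 2216 and 2490 CPM (0.17), and Nr4a1, an early sign of T cell receptor signaling, 260 and 120 CPM (-1.12, -1.73 to -0.51; -0.74 without the 10 cells). Cd69, an early activation and retention marker, had 137 and 114 CPM (-0.26, -0.99 to 0.48). Ifng was not among the genes with 30 UMIs.

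Of 8 measured genes of the BCL-2 family and death receptor list, 4 were 2-fold higher and 0 lower, beside 8.34% and 5.63% of all genes. The 4 were Mcl1, Cflar and Bcl2a1b, which restrain cell death, and Bcl2l11, which promotes it. Without the cells holding other transcripts, 3 genes of the list were 2-fold higher and 0 lower, beside 9.17% and 3.15% of all genes. Mcl1, an antiapoptotic BCL-2 family member, had 317 CPM at 0 h and 684 CPM at 6 h (1.11, 0.71 to 1.52), and Cflar, an inhibitor of caspase-8, 47.4 and 134 CPM (1.51). Bcl2 had 365 and 195 CPM (-0.91, -1.40 to -0.42). Mitochondrially encoded transcripts were higher, with 4 of 13 past 2-fold, beside 8.34% of all genes. Their median was 0.86, led by mt-Atp6 at 5886 and 17196 CPM. The nuclear genes of oxidative phosphorylation had a median of -0.38, with 27 of 28 below 0, where 1082 of all 2219 genes were. Only 2 were 2-fold lower, a share near the 5.63% of all genes. Both medians had the same signs in CD8 T cells (0.83 and -0.42).

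Of 20 genes of the proliferation list 4 were measured, and all 4 were at least 2-fold lower, beside 5.63% of all genes. Tubb5, a tubulin chain, had 653 and 195 CPM, and Tuba1b 350 and 80.1 CPM. A single cell gave 47.1% of the 0 h UMIs of Tubb5 and 50% of those of Tuba1b and Stmn1. Without the 10 cells 2 of them were 2-fold lower, beside 3.15% of all genes. Crip1, a LIM domain protein of memory and innate cells, had 1851 and 412 CPM, and 1079 and 414 CPM without the 10 cells.

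Several of the most extreme ratios rested on few cells. The MHC class II genes H2-Aa, H2-Ab1, H2-Eb1 and Cd74 were among the 15 lowest named genes, and Cd74 had 2429 CPM at 0 h and 40.1 CPM at 6 h. Without the 10 cells Cd74 had 39.7 and 42.9 CPM (0.11, -1.36 to 1.78), so its lower value was not seen there. Some of the 10 cells were picked by a list of B cell and MHC class II genes. Leaving them out is therefore no independent check of Cd74. One 0 h cell gave 49.7% of the Cd74 UMIs. Rgs5, a pericyte gene, and Kcnj8, a potassium channel of the same cells, had 84 and 30 UMIs in 5 cells each at 0 h. Ly6c2, which marks memory-type T cells and monocytes, had 66 UMIs in 7 cells at 0 h and 0 UMIs at 6 h, and still 132 and 0 CPM without the 10 cells. Cd209a came from 1 cell.

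At 6 h, 1 cell with 16608 UMIs and macrophage transcripts gave much of the genes of myeloid inflammation. It accounts for 79.6% of the Cd14 UMIs, 80.7% of those of Il1b, 70.0% of those of Cxcl2, 58.8% of those of Ier3, 90.6% of those of Plac8 and 71.4% of those of Plaur. Without the 10 cells Cxcl2, a neutrophil attractant, still had 53.0 CPM at 0 h and 488 CPM at 6 h, with UMIs in 57 of all 63 cells at 6 h. The remaining barcodes had 2462 and 13921 CPM of Cxcl2 and 816 and 5826 CPM of Il1b, and the part of free RNA in the values of CD4 T cells was not tested. A further 10 genes past 2-fold, among them Ccl2, Ccl3, Ccl4 and Thbs1, had a highest level in the remaining barcodes over 10 times that in CD4 T cells and are set apart for that reason.

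Markers of other cell types differed between the libraries. The B cell and class II list of 12 genes gave 6132 CPM in CD4 T cells at 0 h and 91.6 CPM at 6 h, the macrophage list of 16 genes 1492 and 1159 CPM, the neutrophil list of 12 genes 170 and 836 CPM, and the cardiomyocyte list of 12 genes 66.3 and 25.8 CPM. S100a8, a neutrophil gene limited by the rule, was found in 5.08% of 0 h and 60.3% of 6 h CD4 T cells and in 3.90% and 56.5% of B cells. Lyz2, a myeloid gene, was found in 32.2% and 33.3% of CD4 T cells.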

How the data were processed

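Per the labels and the study's methods, droplet libraries came from a 10× Chromium 3′ v2 kit, and the authors used Cell Ranger with mm10 (version 3.1.0 per the file headers). The deposited values are raw UMI counts for 27998 genes in 2 libraries. Counts were summed over the CD4 T cells of a library and divided by their total (CPM), and ratios carry exact conditional binomial intervals, shares Clopper–Pearson intervals, with a floor of 3 UMIs for a count of 0. The intervals were tested only on counts simulated for each gene as the interval itself assumes. That could not show how far UMIs clustered in single cells make them too narrow. The authors' upper limit of 2500 genes was not applied, because the rule has none, and it is an alternative, as are other filters, scalings and thinning. Doublets were scored in an alternative only. Named genes were the 15 highest and 15 lowest by the interval bound nearest 0 among genes past 2-fold, without rule, mitochondrial, ribosomal and unnamed genes, and up to 8 members of each list by mean level. Bcl11b, Birc3, Gzma, Il6st, Irf1, Isg15, Klrd1, Ncr1, Nfkbid, Rtp4 and S100a4 fall outside this rule and were chosen after their values were seen. Members and gene lists were chosen with earlier results of these data known. Gene symbols are those of the files. Results that need 2 of the genes, 1 planned share of cells included, are not reported here, and the lists leave these genes out. Python 3.11.15, numpy 2.4.6, scipy 1.17.1, pandas 2.3.3, scikit-learn 1.9.0 and matplotlib 3.10.9 were used.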

Additional observations from a re-analysis of the deposited data

How the results depend on the processing

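No paired analysis was possible because each condition is 1 library and the replicate numbers of the labels are not carried by any cell. For the same reason no replicate could be left out, and no value here has a replicate check. The 2 alternatives that leave out the 10 cells with other transcripts, or the top cell of each gene and library, were chosen after seeing the data. The counts of genes past 2-fold depended on how many UMIs were available. Against 185 higher and 125 lower genes, at least 10 UMIs per gene gave 708 and 494, at least 100 UMIs gave 34 and 29, thinning members to 1000 UMIs gave 25 and 27, at least 2 Cd4 UMIs gave 77 and 46, and no UMI of another lineage gave 70 and 49. At most 2500 genes gave 67 lower genes, and leaving out the 10 cells gave 58. Higher genes were 59.7% of all genes past 2-fold, and this share was 72.2% with at most 2500 genes, 68.1% with CPM computed without mitochondrial, ribosomal, hemoglobin, neutrophil and cardiomyocyte genes, 74.4% without the 10 cells and 48.1% after thinning. No scaling moved the median log2 ratio of all genes beyond 0.08.

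The CD4 share of filtered barcodes, 0.519% at 0 h and 0.763% at 6 h, was 1.23% at 6 h with at most 2500 genes per cell, 0.105% and 0.266% with at least 2 Cd4 UMIs, 0.255% and 0.375% without any UMI of another lineage, and 0.145% and 0.0752% after thinning before gating. The share among CD4 and CD8 T cells was 7.06% and 16.9% with at least 2 Cd4 UMIs and 20.0% and 25% after thinning. The share with Foxp3 was 0% at 0 h with at most 2500 genes, and 0% in both libraries in a random draw of 1000 UMIs per member, while another draw without the 10 cells gave 2 of 61 at 6 h (3.28%). Single genes turned direction in 4 cases, where the cause was not tested beyond the cells left out. The log2 ratio of Cd74 was 0.18 with at most 2500 genes and 0.11 without the 10 cells, that of H2-Aa was 0.41 with at least 2 Cd4 UMIs, and that of H2-Eb1 was 2.13 without any UMI of another lineage. With at least 2 Cd4 UMIs, Elovl6 was at 0 UMIs in the 12 cells left at 0 h. Its log2 ratio by the floor fell to -0.0013, which gives no direction. There were 840 values of genes and list medians under the alternatives, these 4 and the floor value of Elovl6 included. Of them, 701 stayed within the interval of the gene or the middle spread of the list. A further 134 moved beyond it without turning a value that was past 2-fold.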
